A study of Rattus norvegicus with 27 samples.

Results

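Noradrenaline acts through the adrenergic receptors, and 7 genes of this family were followed in the medial prefrontal cortex (mPFC) of rats: Adra1a, Adra1b, Adra1d, Adra2a, Adra2b, Adra2c and Adrb1. They were chosen by name, as the rows of the deposited count table that carry these symbols, and make up 7 of its 36865 rows. The table came from a study of repeated anxiety testing, in which polyadenylated RNA from the mPFC of 27 adult male Wistar rats was sequenced, 1 library per rat. No genetic change is named in the labels. The rats had passed through a battery of anxiety tests and were sampled in a resting state, straight from the home cage. They form 1 group without an untested control group. The male Wistar rats of the study's trait anxiety experiment came in 2 cohorts, and the cohort of a library is not in the labels and was not used here. The sample labels give learned helplessness as the treatment, whereas the study's methods describe the test battery, and the labels and the methods also differ in the brain section cut and in the library kit. The dissected tissue held the infralimbic, prelimbic and anterior cingulate areas together. The rats were picked by their composite anxiety scores, which were not used here, so the values below describe levels, spread and shared variation between rats and no relation to anxiety.

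Noradrenaline reaches the cortex from neurons of the locus coeruleus in the brainstem. The alpha-1 receptors (Adra1a, Adra1b and Adra1d) couple through Gq to phospholipase C, calcium release and protein kinase C. The alpha-2 receptors (Adra2a, Adra2b and Adra2c) couple through Gi and lower cyclic AMP, and Adra2a and Adra2c also serve as autoreceptors on noradrenergic fibers. In prefrontal neurons, Adra2a signaling is known for supporting working memory. The beta-1 receptor (Adrb1) couples through Gs and raises cyclic AMP, which acts through protein kinase A.

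Total counts ran from 4907255 to 12771309 reads per rat, with a median of 8168801. The libraries fell into 2 groups by their number, since the 16 libraries numbered up to 31 held 4907255 to 8568317 reads and the 11 numbered from 32 held 9404220 to 12771309, with no overlap. What the numbering stands for is not stated, and the relations between receptor genes named below are therefore also given within these 2 blocks of libraries. The tissue carried the excitatory neuron gene Slc17a7 at 11183 ± 1417 and the general neuronal gene Snap25 at 24623 ± 2382 normalized counts (SD, n = 27). Sst, which marks a class of cortical interneurons, was listed at 0 reads in all 27 rats, while the interneuron gene Vip stood at 587 ± 93.5 normalized counts, and Adcy9, Cux1 and Spred2 were listed at 0 as well. Whether such rows were counted at all cannot be told from the table.

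The library of rat 3, 1 of the 16 numbered up to 31, stood apart from the others. Over 9846 genes (mean normalized count 50 or higher), its root mean square distance from the median of each gene was 0.53 on the log2 scale, against 0.16 to 0.30 in the other 26 libraries. It held the lowest value of the 27 for 21.1% of these genes and the highest for 21.1%, where no other library held more than 7.72% and 10.0%. Its depth of 5654175 reads was not the lowest. The summed level of the excitatory neuron markers was 11616 normalized counts in rat 3 and 13487 to 22237 in the others, and that of the upper layer markers 3415 against 3749 to 5115. The oligodendrocyte markers summed to 30132 against 9751 to 23118, and the oligodendrocyte precursor markers to 2939 against 1785 to 2810. The receptor genes themselves were not at an extreme there. Rat 3 had the fourth lowest Adra1a at 10.7, the second lowest Adra1d at 673 and the third lowest Adrb1 at 121 normalized counts. The fits below are therefore also given without rat 3, a choice made after seeing the data.

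For 6 of the 7 receptor genes a 250-base stretch before the annotated start was at hand, and none was for Adra1a. The sequences of Adra1b, Adra1d and Adrb1 are shown because these 3 genes varied together across rats. They are RefSeq sequences of the GRCr8 assembly, 5′ to 3′ on the strand of the gene. The Adra1b sequence lies at chr10:28814348-28814597 on the minus strand, the Adra1d sequence at chr3:139262332-139262581 on the minus strand, and the Adrb1 sequence at chr1:265776853-265777102 on the plus strand. Capitals mark the matches to the searched motifs, which occurred only in the Adrb1 sequence among these 3.
Adra1b: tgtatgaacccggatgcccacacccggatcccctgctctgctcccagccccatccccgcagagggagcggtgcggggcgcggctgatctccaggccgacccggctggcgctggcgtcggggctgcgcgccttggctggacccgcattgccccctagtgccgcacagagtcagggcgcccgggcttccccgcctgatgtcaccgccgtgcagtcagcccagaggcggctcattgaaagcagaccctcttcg
Adra1d: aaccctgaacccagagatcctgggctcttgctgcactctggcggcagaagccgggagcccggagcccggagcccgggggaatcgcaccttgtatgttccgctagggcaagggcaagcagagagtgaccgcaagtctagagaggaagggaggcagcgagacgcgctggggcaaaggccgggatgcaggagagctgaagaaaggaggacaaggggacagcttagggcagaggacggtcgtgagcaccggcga
Adrb1: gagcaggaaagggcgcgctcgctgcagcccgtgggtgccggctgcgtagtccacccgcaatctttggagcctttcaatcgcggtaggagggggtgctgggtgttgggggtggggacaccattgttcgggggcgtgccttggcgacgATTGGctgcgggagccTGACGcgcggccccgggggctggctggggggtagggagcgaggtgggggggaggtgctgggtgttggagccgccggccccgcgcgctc

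All 3 stretches were rich in G and C, at 70.8% for Adra1b, 64.0% for Adra1d and 72.0% for Adrb1, against a median of 51.2% and quartiles of 44.0% and 60.0% over the 33469 stretches in the RefSeq set. Both strands were searched for 5 short motifs, none of which contains another. The GC box, spelled GGGCGG, was present in 30.5% of all 33469 stretches. The CCAAT box was present in 34% of them. The TATA box, spelled TATAAA, was present in 12.9%. The core of the cyclic AMP response element, spelled TGACG, was present in 18.2%. The core of the glucocorticoid response element, spelled AGAACA, was present in 17.5%. In Adrb1 the reverse complement of CCAAT began 104 bases before the start and TGACG began 88 bases before it. The Adra2b and Adra2c stretches held 2 GC boxes each, and the Adra2a stretch, like those of Adra1b and Adra1d, held no match to any of the 5.

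In all, 48237 reads fell on the 7 genes, between 923 and 3242 per rat with a median of 1604. Gene length was not used, so levels are compared between rats for 1 gene and never between genes. Values are counts divided by DESeq2 size factors (normalized counts), given as mean ± SD over 27 rats. In this bulk tissue, fewer cells of a type and less RNA per cell cannot be told apart.

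Among the alpha-1 genes, Adra1a was the most variable between rats. It stood at 22.7 ± 11.3 normalized counts (n = 27), from 5.89 in rat 54 through a median of 22.8 to 48.8 in rat 12, an 8.28-fold range. The reads behind these values numbered 5 to 48 per rat. Adra1b stood at 238 ± 39.3, with 166 in rat 5 at the low end, a median of 245 and 302 in rat 13 at the high end. Its range was narrower than that of Adra1a, at 1.82-fold. Adra1d, the receptor gene with the most reads of the 7 at 440 to 1651 per rat, stood at 803 ± 111, from 563 in rat 5 through a median of 794 to 1158 in rat 32. Rat 5 was thus the lowest of the 27 for both Adra1b and Adra1d, and the rat 32 value of Adra1d lay apart from the next highest, 951 in rat 17.

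The alpha-2 genes differed in how much they varied. Adra2c was the steadiest member, at 253 ± 27.1 normalized counts, from 203 in rat 18 through a median of 248 to 314 in rat 54, a 1.55-fold range. Adra2a stood at 223 ± 40.7, from 160 in rat 31 through a median of 228 to 304 in rat 52, a 1.90-fold range. Adra2b was near the floor of the measurement, at 2.57 ± 2.36 with a median of 2.18 and a highest value of 9.60 in rat 9. It had 0 to 7 reads per rat and none in rats 13, 18, 35 and 53, where 0 reads allows a share of up to 2.78e-05% to 4.32e-05% of the library's counts. At this depth a difference in Adra2b between single rats was not detectable with any precision.

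Adrb1 stood at 161 ± 29.8 normalized counts, from 102 in rat 19 through a median of 158 to 218 in rat 54, a 2.14-fold range. Its values differed between the library blocks, as described further on.

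**Figure D1:**
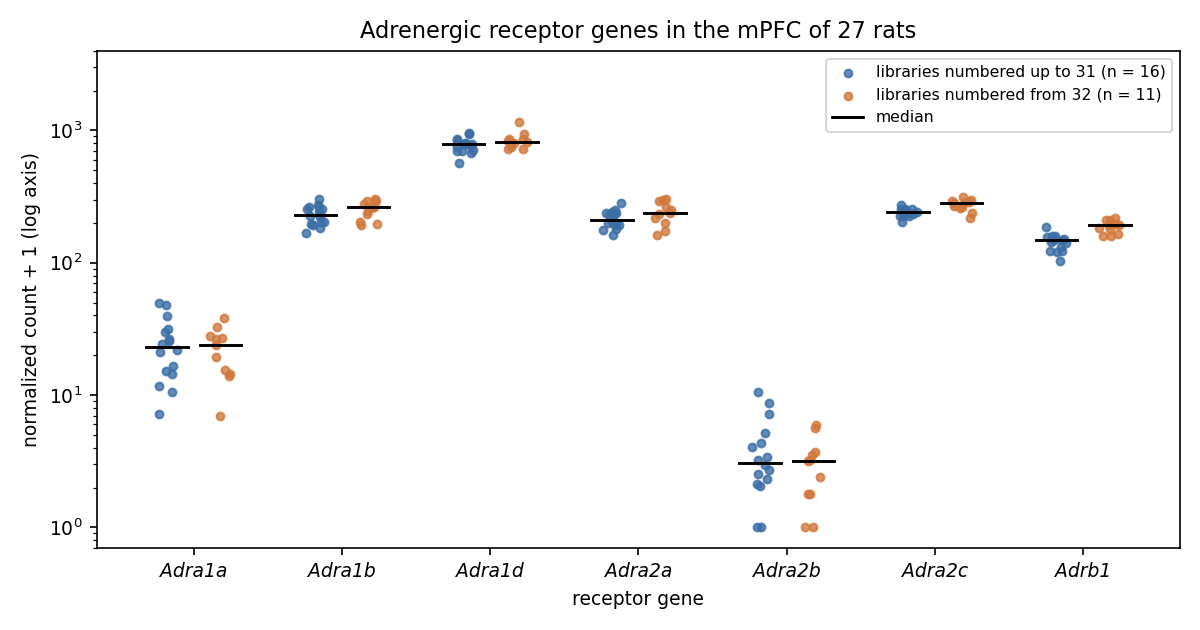
Normalized count + 1 of the 7 receptor genes on a log axis, 1 point per rat, in blue for the 16 libraries numbered up to 31 and in orange for the 11 numbered from 32, with the median of each block as a black line. Heights are not comparable between genes because gene length was not used. Adrb1 shows the clearest offset between the blocks, Adra1a and Adra2b the widest scatter within them.

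The first question was whether the receptor genes varied between rats by more than counting gives. Each gene's counts were set against Poisson noise in a chi-square test of dispersion. With Benjamini-Hochberg adjustment over 11730 genes with a mean of at least 10 reads, the test called all 6 members that reach that mean. The background was 10537 of the 11730 genes (89.8%), so a call alone sets no receptor gene apart. The adjusted p ran from 8.9e-78 for Adra1d to 1.8e-07 for Adra2c. The share of the variance that counting accounts for was 6.71% for Adra1d, 13.8% for Adra2a, 15.8% for Adra1b, 18.3% for Adra1a, 18.5% for Adrb1 and 35.4% for Adra2c. Adra2b entered only when the minimum mean was dropped, where counting accounted for 47.6% of its variance (adjusted p = 0.0023, with 11160 of 15078 genes or 74.0% called).

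The coefficient of variation was 49.7% for Adra1a, 18.6% for Adrb1, 18.2% for Adra2a, 16.5% for Adra1b, 13.8% for Adra1d and 10.7% for Adra2c. On the log2 scale the SD was 0.74 for Adra1a, 0.27 for Adrb1, 0.26 for Adra2a, 0.24 for Adra1b, 0.19 for Adra1d and 0.15 for Adra2c. These spreads were not tested against each other. The wide spread of Adra1a remained within the blocks, with an SD of 0.79 over the 16 libraries and 0.71 over the 11.

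Adrb1 and Adra2c were higher in the later and deeper block. Adrb1 stood at 142 ± 19.7 normalized counts in the 16 libraries numbered up to 31, from 102 to 184, and at 187 ± 20.8 in the 11 numbered from 32, from 158 to 218. The ranges overlapped only between 158 and 184. On the log2 scale the difference was 0.39 (SE 0.07, adjusted p = 2.6e-04, edgeR's quasi-likelihood test with Benjamini-Hochberg adjustment over all 11716 genes tested). Adra2c stood at 240 ± 16.4 in the first block and 272 ± 28.4 in the second, with overlapping ranges of 203 to 273 and 216 to 314, a log2 difference of 0.18 (SE 0.05, adjusted p = 0.012). The background of this comparison was 2112 of 11716 genes called (18%), 1037 of them higher in the second block (8.85%) and 1075 lower (9.18%). Hence 2 of the 6 tested members were called, both upward. Without rat 3 the differences were 0.38 for Adrb1 (adjusted p = 3.4e-04, edgeR) and 0.19 for Adra2c (adjusted p = 0.010).

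The other tested members gave no call between the blocks. The log2 difference was 0.16 for Adra2a (SE 0.09, adjusted p = 0.26, edgeR), 0.12 for Adra1b (SE 0.09, adjusted p = 0.37), 0.12 for Adra1d (SE 0.07, adjusted p = 0.25) and -0.16 for Adra1a (SE 0.26, adjusted p = 0.72). Depth moved with Adrb1 across the 27 rats, with a rho of 0.770 between its level and the total count, and with Adra2c, with a rho of 0.585. Within the first block these rhos were 0.653 and 0.518, and within the second -0.291 and -0.118. For the other members the rho with the total count lay between -0.138 and 0.366 over all rats. The part of depth or of the numbering in the levels of Adrb1 and Adra2c was not tested further. For the difference between the blocks, the numbering and the depth cannot be told apart.

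The mutual correlation of the members was taken from log2(normalized count + 1) over the 27 rats, for all 21 pairs, and each pair was tested two-sided against 100000 permutations, with no adjustment over the 21. A Spearman p under 0.05 was reached by 6 of the 21 pairs. For scale, the share of all tested genes with an unadjusted p under 0.05 in the edgeR fits on single receptor genes ran from 515 of 11872 for Adra2a through 1760 of 12107 for Adra1d to 3752 of 11963 for Adrb1, so the count alone does not set the receptor pairs apart. For pairs in which both genes could be fitted, the adjusted p of the edgeR fit across all genes is given as well. Without rat 3 the same 6 pairs reached a Spearman p under 0.05, with rho between -0.403 and 0.745.

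The alpha-1 pair Adra1b and Adra1d gave the closest relation of the 21, with rho = 0.754 (permutation test p = 2.0e-05) and r = 0.739 (permutation test p = 1.0e-05, the smallest that these permutations can give). Rats low in one were low in the other, with rat 5 at 166 and 563 normalized counts and rat 32 at 300 and 1158. The relation was present within the first block (rho = 0.776, r = 0.792, n = 16) and, with a Spearman p of 0.058 in the permutation test, within the second (rho = 0.600, r = 0.611, n = 11). Without rats 5 and 22, the most distant for Adra1b, r was 0.650. In the edgeR fits, Adra1b rose by 0.18 on the log2 scale per SD of Adra1d (SE 0.03, adjusted p = 0.0090) and Adra1d by 0.14 per SD of Adra1b (SE 0.03, adjusted p = 0.015). With the library block as a covariate the adjusted p values were 0.013 and 0.037, in fits that called 1.16% and 0.0836% of all genes. Without the 2 rats most distant from the covariate's median, rats 5 and 32 for Adra1d and rats 5 and 22 for Adra1b, the slopes were 0.21 and 0.12 and neither was called (adjusted p = 0.37 and 0.23 in edgeR). In RefSeq GRCr8 the Adra1b locus overlaps LOC108352076, and no other member overlaps another gene there, so reads of Adra1b are the less certain of the pair. How the reads were assigned by strand is not given in the sources used here.

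**Figure D2:**
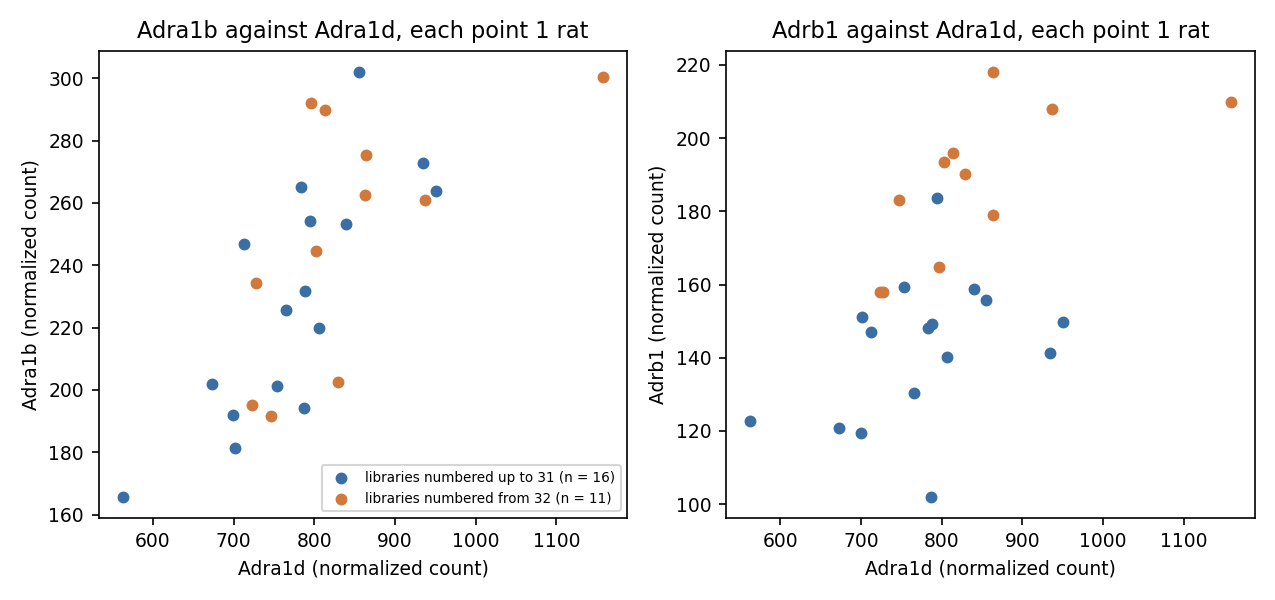
Normalized counts of Adra1b (left) and Adrb1 (right) against those of Adra1d, 1 point per rat, colored by library block (blue, 16 libraries numbered up to 31; orange, 11 numbered from 32). In the left panel the points of both blocks rise together (rho = 0.754 over 27 rats). In the right panel the orange points lie above most of the blue ones at the same Adra1d level (rho = 0.550).

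Adrb1 followed both of these genes. Its rho with Adra1d was 0.550 (permutation test p = 0.0034, r = 0.543 with permutation p = 0.0032), with 0.432 in the first block and 0.827 in the second, and r was 0.408 with the 2 most distant rats left out. With Adra1b the rho was 0.464 (permutation test p = 0.015, r = 0.526 with permutation p = 0.0046), with 0.456 and 0.473 in the blocks, and r was 0.484 without the 2 rats. With Adra2c it was 0.525 (permutation test p = 0.0057, r = 0.500 with permutation p = 0.0083). Once the block means were subtracted, the rho was 0.594 with Adra1d (permutation test p = 0.0013), 0.491 with Adra1b (permutation test p = 0.0098) and 0.264 with Adra2c (permutation test p = 0.18). With Adra2c it was 0.132 in the first block and 0.527 in the second (permutation test p = 0.63 and 0.099), and r was -0.020 and 0.316 there. In the edgeR fit on Adrb1, these 3 genes were called, with slopes per SD of Adrb1 of 0.13 for Adra1b (SE 0.04, adjusted p = 0.031), 0.10 for Adra1d (SE 0.03, adjusted p = 0.021) and 0.08 for Adra2c (SE 0.03, adjusted p = 0.044). Without rats 19 and 54, the most distant for Adrb1, the calls of Adra1b and Adra2c were lost (adjusted p = 0.090 and 0.13, edgeR) and that of Adra1d was not (adjusted p = 0.012). Without rat 3 all 3 passed, at an adjusted p of 0.049 for Adra1b, 0.040 for Adra1d and 0.048 for Adra2c (edgeR). This stands against a background of 18.2% of 11963 genes called in that fit, and 7.72% called upward. With the block as a covariate none of the 3 was called, at slopes of 0.18 for Adra1b (SE 0.06), 0.14 for Adra1d (SE 0.05) and 0.03 for Adra2c (SE 0.04) and an adjusted p of 0.093, 0.098 and 0.70 (edgeR), in a fit that called 1.31% of all genes. The slope was thus smaller than without the block for Adra2c and larger for Adra1b and Adra1d.

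Adra2a gave no relation past the test with an alpha-1 gene over the 27 rats without a block term. Its rho was -0.117 with Adra1a (permutation test p = 0.56), -0.309 with Adra1b (permutation test p = 0.12, r = -0.292) and -0.245 with Adra1d (permutation test p = 0.22, r = -0.094). In the 16 libraries of the first block the values for Adra1b and Adra1d were -0.638 and -0.553 (permutation test p = 0.0096 and 0.029), and in the 11 of the second -0.209 and -0.118 (permutation test p = 0.54 and 0.73). With the block means subtracted, over all 27 rats, the rho with Adra1b was -0.400 (permutation test p = 0.039, r = -0.389 with permutation p = 0.045) and that with Adra1d -0.305 (permutation test p = 0.12). For Adra1a the values in the blocks were 0.091 and -0.391 (permutation test p = 0.74 and 0.24). The difference between the blocks was not tested. Adra2a correlated with the other alpha-2 genes at rho = 0.474 for Adra2b (permutation test p = 0.013, r = 0.462) and 0.314 for Adra2c (permutation test p = 0.11, r = 0.388 with permutation p = 0.045, and r = 0.385 with permutation p = 0.052 without rat 3). Without rats 31 and 35, the most distant for Adra2a, the r of Adra2a with Adra2b was 0.386 and the Spearman p in the permutation test was 0.051. Within the blocks it was rho = 0.506 and 0.528 for Adra2b and 0.509 and 0.227 for Adra2c. With the block means subtracted the rho with Adra2c was 0.408 (permutation test p = 0.036) and r was 0.293 (permutation test p = 0.14). The Adra2b values rest on 0 to 7 reads per rat, so both its relation to Adra2a and the rho of -0.386 between Adra2b and Adra1b (permutation test p = 0.047, r = -0.412) are relations of a sparse count. The latter rho was -0.446 and -0.132 within the blocks, and its permutation p was 0.055 with TMM, 0.060 with total counts and 0.12 with the block means subtracted.

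Adra1a gave no such relation over the pooled rats. Over 27 rats without a block term its rho with the other members lay between -0.356 for Adra2b and 0.299 for Adrb1, none with a permutation p under 0.05. Its rho with its closest relatives was -0.007 for Adra1b and 0.030 for Adra1d. Toward Adrb1 the blocks parted, at rho = 0.750 in the first (permutation test p = 0.0012, n = 16, and 0.743 without rat 3) and 0.036 in the second (permutation test p = 0.93, n = 11). With the block means subtracted, over all 27 rats, it was 0.422 (permutation test p = 0.029, r = 0.432 with permutation p = 0.024). The difference between the blocks was not tested either.

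**Figure D3:**
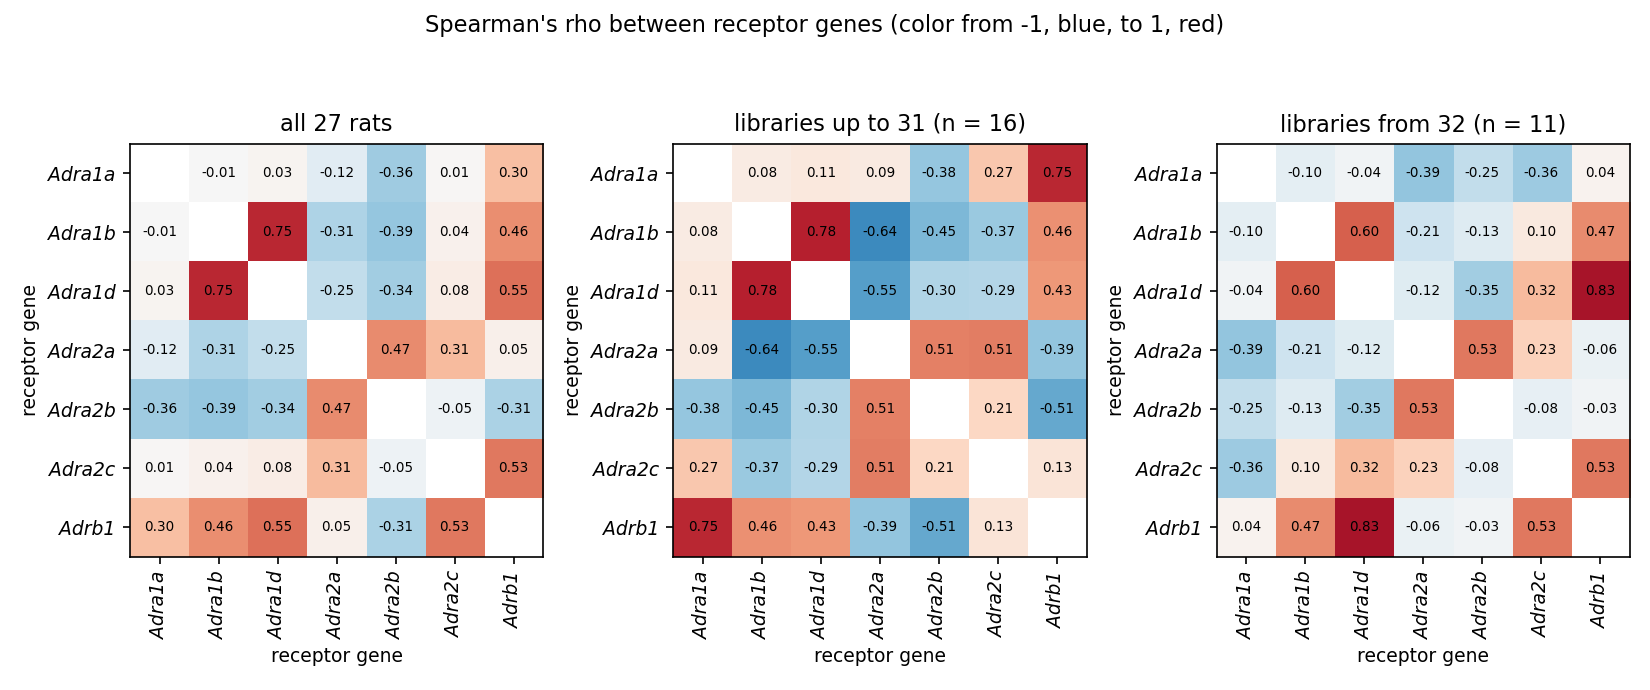
Spearman's rho between the 7 receptor genes over all 27 rats (left), within the 16 libraries numbered up to 31 (middle) and within the 11 numbered from 32 (right), on a color scale from -1 (blue) to 1 (red). The Adra1b and Adra1d cell is high in each panel (0.75, 0.78 and 0.60), and the Adra1a and Adrb1 cell is high in the middle panel only.

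To set each receptor gene in the wider transcriptome, every other gene was regressed on its log2 level, scaled to an SD of 1, with edgeR's quasi-likelihood test. A slope is then the log2 change per SD of the receptor gene. The number of genes that followed a receptor gene ranged widely. At an adjusted p under 0.05, 2173 of 11963 genes (18.2%) followed Adrb1, 924 upward and 1249 downward, and 1620 of 11963 (13.5%) followed Adra1a, 1154 upward and 466 downward. Adra1d was followed by 136 of 12107 genes (1.12%), 80 upward (0.661%) and 56 downward (0.463%), Adra2c by 19 of 11963 (0.159%), 8 upward (0.0669%) and 11 downward (0.0920%), and Adra1b by 11 of 11920 (0.0923%). For Adra2a the count was 0 of 11872, with 515 at an unadjusted p under 0.05 and 1 gene called by DESeq2. DESeq2's Wald test called 134 genes for Adra1b, 280 for Adra1d and 339 for Adra2c. Adra2b, under 10 reads on average, was not fitted.

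These counts depended on the blocks and on single rats. Without rat 3, 1197 genes followed Adra1a (10.0%), 1559 followed Adrb1 (13%), 63 followed Adra1d (0.520%), 14 followed Adra1b and 2 followed Adra2a, whereas Adra2c was followed by 184 (1.54%). With the library block as a covariate the Adrb1 count was 158, the Adra2c count 0 (347 at an unadjusted p under 0.05) and the Adra1a count 2139, while Adra1d had 141 and Adra1b 10. With the block and without rat 3 together they were 31 for Adrb1, 0 for Adra2c, 1507 for Adra1a, 124 for Adra1d and 12 for Adra1b. Without rats 19 and 54, the most distant for both genes, 741 genes followed Adra1a and 1791 followed Adrb1. Without the 2 farthest rats of the other genes (rats 5 and 32 for Adra1d, 5 and 22 for Adra1b, 18 and 54 for Adra2c) no gene was called for Adra1d, Adra1b or Adra2c, against 1055, 1129 and 1171 genes at an unadjusted p under 0.05. Within the first block 2197 genes followed Adra1a and 925 followed Adrb1, and within the second block 9 and 0 did, beside 792 and 510 at an unadjusted p under 0.05. In the first block without rat 3 the counts were 1511 and 436. The smaller number of rats in a block bears on these within-block counts too.

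**Figure D4:**
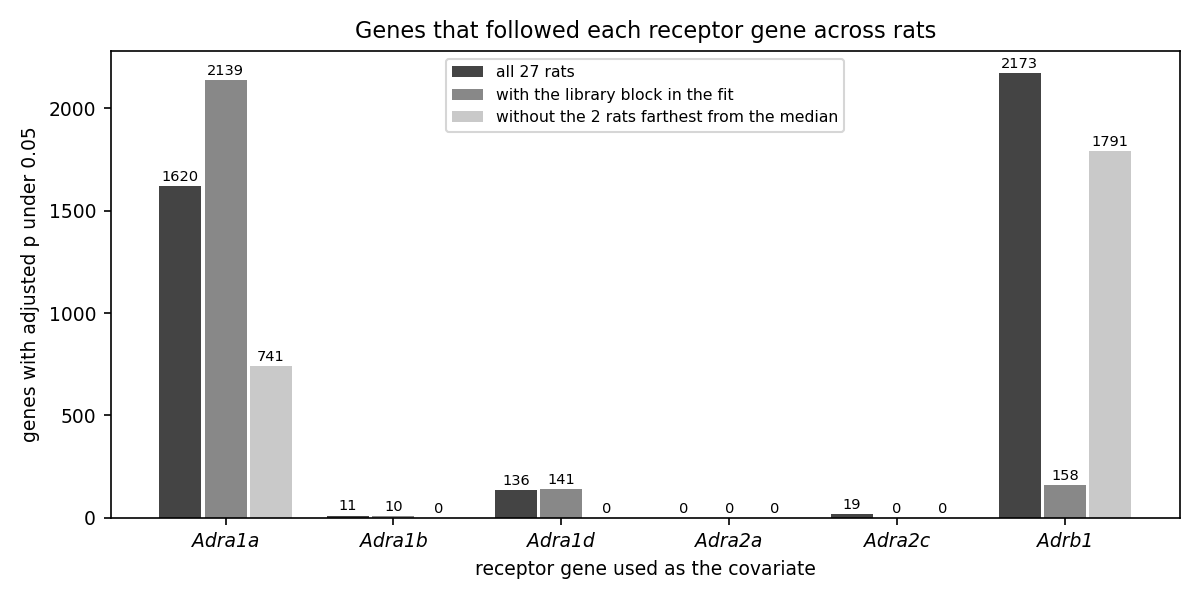
Number of genes with an adjusted p under 0.05 (edgeR) when all genes were regressed on 1 receptor gene, for all 27 rats (dark), with the library block as a covariate (mid gray) and leaving out the 2 rats most distant from that receptor gene's median (light). Adrb1 drops from 2173 to 158 with the block, and Adra1d from 136 to 0 without rats 5 and 32.

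Likeness to each receptor gene was measured as Spearman's rho over 27 rats among the 9846 genes whose mean reached 50 normalized counts, and the highest 3 and the lowest 1 are named. The extremes among so many genes were picked for their size, so they are given as a description without a test. All points of 1 gene share the same libraries and depths.

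Adra1a was most like Grm5, a metabotropic glutamate receptor (rho = 0.922), Tnr, an extracellular matrix protein (0.913), and Ptprt, a receptor tyrosine phosphatase (0.900). Without rat 3 they were 0.917, 0.907 and 0.895. Within the blocks the rho values of these 3 were 0.903 and 0.836, 0.929 and 0.891, and 0.932 and 0.855. The lowest was that of Slc35b2 (-0.758), a transporter of the sulfate donor into the Golgi. Grm5 itself stood at 261 ± 108 normalized counts, so it too varied widely between rats.

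Adra1b was most like Sstr3, a somatostatin receptor (0.819), Hapln4, a link protein of the perineuronal matrix (0.806), and Gfra2, a co-receptor for neurturin (0.796), and least like Prkd3 (-0.689). The lowest rho of these 3 in either block was 0.755. Adra1d was most like Mapk4, an atypical MAP kinase (0.823), St8sia5, a sialyltransferase (0.810), and Osbp2, an oxysterol-binding protein (0.784), and least like the cystine transporter gene Slc7a11 (-0.728). Within the blocks Mapk4 gave 0.850 and 0.718, St8sia5 0.744 and 0.800, Osbp2 0.788 and 0.782 and Slc7a11 -0.812 and -0.436.

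Adra2a was most like Cldn11, the claudin of myelin (0.729), Nbl1, a BMP antagonist (0.712), and Ndrg1 (0.672), and least like Zfp410 (-0.752). The Pearson r of the first 3 was lower, at 0.553, 0.634 and 0.567, and 0.788, 0.651 and 0.678 without rat 3. Within the blocks Cldn11 gave 0.774 and 0.755, Nbl1 0.697 and 0.600, Ndrg1 0.709 and 0.736 and Zfp410 -0.568 and -0.845. Adra2c was most like Rfng, a Fringe glycosyltransferase of the Notch pathway (0.749), Slc22a17 (0.733) and Rab4a, a small GTPase of endosomal recycling (0.731), and least like Hnrnpul2 (-0.770). The rho of Rab4a was 0.318 in the first block and 0.573 in the second, that of Rfng 0.471 and 0.818, that of Slc22a17 0.674 and 0.445 and that of Hnrnpul2 -0.426 and -0.745.

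Adrb1 was most like Cdk5r2, an activator of the neuronal kinase Cdk5 (0.847), Grin1, the obligatory subunit of the NMDA receptor (0.841), and Tmem158 (0.835), and least like the RNA helicase gene Ddx3x (-0.898). In the blocks Cdk5r2 gave 0.768 and 0.318, Grin1 0.718 and 0.473, Tmem158 0.450 and 0.782, and Ddx3x -0.838 and -0.564.

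The genes that supply, transmit and terminate the noradrenaline signal were held as a list of 56, of which 52 were tested in these fits and 4 were not. Dbh and Slc6a2 had too few reads, and Adcy9 and Spred2 were listed at exactly 0 in all 27 rats. Among the supply genes, Th, the rate-limiting enzyme of catecholamine synthesis, stood at 24.3 ± 5.84 normalized counts (n = 27), from 12.6 to 35.6. Dbh, which turns dopamine into noradrenaline, stood at 2.35 ± 1.35 with 0 to 7 reads per rat and none in 2 rats. Slc6a2, the noradrenaline transporter, had 0 reads in 25 of the 27 rats and 1 read in the others. The tissue thus held few reads of the genes that define noradrenergic neurons. None of the 7 tested genes of supply and clearance followed any receptor gene over the 27 rats. These fits called between 0% (Adra2a) and 18.2% (Adrb1) of all genes, so the absence of calls among 7 does not set these genes apart.

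With Adra1a, 17 of the 52 genes rose and 2 fell, against 9.65% of all genes up and 3.90% down. All 17 risers had their lowest value of the 27 in rat 3 and both fallers their highest, and Adra1a was low there too. The effectors of the list summed to 24155 normalized counts in rat 3 and to 27116 to 34597 in the others. The whole list summed to 65674 against 66961 to 78039. Without rat 3, 14 rose and none fell, where 10.0% of all genes were called. The calls of Arrb1, Prkar1a, Grk3, Arrb2 and Gnas were lost, and the slopes of Prkca, Plcb1 and Gnaq were 0.39, 0.17 and 0.19. The median slope of the list was 0.06, beside -0.01 over all genes tested, and 0.05 without rat 3. The effectors made up 10 of the 17. Prkca, a protein kinase C downstream of Gq, rose by 0.42 per SD of Adra1a (SE 0.05, adjusted p = 3.7e-06, edgeR), Plcb1, the Gq-activated phospholipase, by 0.19 (SE 0.04, adjusted p = 0.0010), and Gnaq, the Gq alpha subunit itself, by 0.21 (SE 0.04, adjusted p = 0.0011). The phospholipase genes Plcb3 and Plcb4 and the protein kinase C gene Prkcb, also in the list, were not called with Adra1a. Some genes of cyclic AMP signaling were among the risers. Pde4d, which degrades cyclic AMP, had a slope of 0.32 (SE 0.05, adjusted p = 8.1e-05, edgeR), Adcy1, an adenylyl cyclase, 0.43 (SE 0.13, adjusted p = 0.026) and Prkacb, a catalytic subunit of protein kinase A, 0.26 (SE 0.06, adjusted p = 0.0065). Among genes of desensitization and anchoring, Akap5 rose by 0.25 and Arrb1 by 0.29, while Arrb2 fell by 0.09. Among the other risers were Prkar1a, Adcy2, Kcnj3, Pde4b, Gnb1, Gna11, Grk3 and Grk5, with slopes of 0.08 to 0.20, and Gnas, the Gs alpha subunit, fell by 0.06.

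The Adra1a pattern differed between the library blocks in how much was called. With the block as a covariate 18 genes of the list rose and 2 fell, where 17.8% of all genes were called. Within the first block 22 rose and 1 fell, where 18.4% of all genes were called, whereas within the second none was, where 0.0734% were, with a median slope of 0.10 in the first and 0.02 in the second. In the first block without rat 3, 18 rose and none fell, where 12.7% of all genes were called. Without rats 19 and 54 the counts were 8 and 0, where 6.23% of all genes were called. Some cell type markers were called with Adra1a too, in a fit where 13.5% of all genes were. The neuronal gene Map2 rose by 0.63 per SD (SE 0.07, adjusted p = 1.4e-06, edgeR), the astrocyte glutamate transporter gene Slc1a2 by 0.46, Gad2 by 0.32, Syt1 by 0.24, Camk2a by 0.22, Rasgrf2 by 0.31 and Rorb by 0.28, and the endothelial gene Cldn5 fell by 0.12. Map2, Gad2, Syt1, Camk2a and Rasgrf2 were lowest in rat 3 and Cldn5 was highest there. Without rat 3 the slopes of Map2, Slc1a2 and Gad2 were 0.59, 0.47 and 0.28, the other named risers were also called and Cldn5 was not (adjusted p = 0.072, edgeR). Of the whole lists this was 2 of 5 neuron markers, 2 of 5 excitatory neuron markers, 1 of 6 interneuron markers and 1 of 8 astrocyte markers, with list medians of 0.02, 0.09, 0.01 and 0.00, and 1 of 4 upper layer and 1 of 5 endothelial markers. In the deep layer list of 6 only Rorb was called, and Fezf2, Bcl11b, Foxp2, Tle4 and Crym were not. The summed level of the 5 neuron markers ran from 31762 to 42160 normalized counts in the first block and from 33455 to 41375 in the second, and Sst and Cux1 were the markers listed at 0. The part of cell type makeup in the Adra1a relations was not tested.

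With Adrb1, 6 of the 52 noradrenaline genes rose and 3 fell, against 7.72% of all genes up and 10.4% down. Both directions together made up 18.2% of all genes, so the number of calls does not set the list apart. Those that rose included Pde4a (slope 0.16, SE 0.03, adjusted p = 0.0011, edgeR), Gnao1 (0.14), Gnaz (0.13), Kcnj6 (0.11) and Plcb4 (0.10). Of the 6, 5 had their lowest value in rat 3, where Adrb1 was low as well. Those that fell were Creb1, the transcription factor that protein kinase A activates (-0.42, SE 0.09, adjusted p = 0.0012, edgeR), and the Gi alpha subunit genes Gnai2 (-0.14) and Gnai3 (-0.09). Without rat 3, 7 rose and 3 fell, where 13% of all genes were called. Plcb4 was lost (adjusted p = 0.091, edgeR), and Pde4a (0.14), Gnao1 (0.11), Gnaz (0.10), Kcnj6 (0.08), Creb1 (-0.41), Gnai2 (-0.11) and Gnai3 (-0.09) were called. Over all 27 rats, Pde4a, Plcb4, Creb1, Gnai2 and Gnai3 also differed between the library blocks in the same direction, with log2 differences of 0.23, 0.19, -1.05, -0.23 and -0.18 between the later and the earlier libraries. With the block as a covariate, in a fit that called 1.31% of all genes and 0.948% upward, none of these 9 was called. Rgs4, Kcnj9 and Akap5 were called upward there instead, of which Rgs4 and Kcnj9 were called without rat 3 too. Some cell type markers were called with Adrb1 as well. Slc17a7 (0.12), Tbr1 (0.15), Cux2 (0.15), Rbfox3 (0.09) and Slc32a1 (0.10) of neurons rose, and Acta2 (-0.63) and Tagln (-0.62) of vessel walls, C1qa (-0.12) and Aif1 (-0.11) of microglia and Gja1 (-0.08) of astrocytes fell. Slc17a7, Tbr1, Cux2 and Slc32a1 were lowest in rat 3. Without it the calls of Tbr1, Cux2 and Gja1 were lost (adjusted p = 0.056, 0.053 and 0.058, edgeR) and the other 7 were called. By list these were 2 of 5 excitatory neuron, 1 of 5 neuron, 1 of 4 upper layer, 1 of 6 interneuron, 2 of 7 mural, 2 of 6 microglia and 1 of 8 astrocyte markers. The summed level of the 7 mural markers ran from 687 to 3911 normalized counts in the first block and from 557 to 2175 in the second. Of these, Tbr1 (0.28), Slc32a1 (0.22) and Rbfox3 (0.16) were also higher in the later libraries by the log2 difference in parentheses, and with the block as a covariate none of the 10 was called. The part of these markers in the Adrb1 relations was not tested.

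No gene of the noradrenaline list was called for Adra1b, Adra1d, Adra2a or Adra2c over the 27 rats. Those fits called 0.0923%, 1.12%, 0% and 0.159% of all genes, so the absence of calls does not set the list apart. With the block as a covariate Rgs4 was called for Adra1d alone, where 1.16% of all genes were called. Without rat 3 Creb1 was called downward with Adra2c, where 1.06% of all genes were called downward.

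Adra1d ran opposite to myelin genes. Of the 7 oligodendrocyte markers, 4 fell per SD of Adra1d, among them Opalin (-0.27, SE 0.06, adjusted p = 0.030, edgeR), Mobp, a myelin protein gene (-0.27, SE 0.06, adjusted p = 0.037) and Mog, a protein of the myelin surface (-0.24, SE 0.05, adjusted p = 0.027). The background in that fit was 0.463% of genes called downward. The 3 that did not pass the test had slopes of -0.22 for Mag, -0.17 for Cnp and -0.14 for Cldn11, and the list median was -0.24, beside 0.00 over all genes. Of the 4, 3 had their highest value in rat 3, where Adra1d was the second lowest. Without rat 3 none of the 7 was called, at slopes of -0.23 for Opalin, -0.26 for Mobp and -0.20 for Mog (adjusted p = 0.067, 0.061 and 0.061, edgeR) and a list median of -0.20, in a fit that called 63 genes. With the block as a covariate 6 of the 7 were called, beside 0.653% of all genes called downward, and 6 were called with the block and without rat 3, where 1.02% of all genes were called. Within either block and without rats 5 and 32 none was called, since no gene at all was, while the list medians were -0.32, -0.24 and -0.28. The list median on Adra1b was -0.16 with no gene called. The summed level of the 7 markers ran from 9751 to 30132 normalized counts in the first block and from 9953 to 19036 in the second, with none of the 7 at 0 in any rat.

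Some markers of cortical layers were called with Adra1d, in both directions. Lamp5, an upper layer gene, rose by 0.14 per SD (SE 0.03, adjusted p = 0.011, edgeR), as did the neuronal nuclear gene Rbfox3 by 0.10. The deep layer genes Tle4 and Foxp2 fell by 0.13 and 0.25 (adjusted p = 0.018 and 0.037, edgeR). These were 1 of 4 upper layer, 1 of 5 neuron and 2 of 6 deep layer markers, beside 0.661% of all genes upward and 0.463% downward. Without rat 3 the call of Foxp2 was lost (adjusted p = 0.053, edgeR) and the other 3 were made. None was called without rats 5 and 32 or within either block, where no gene was. The part of white matter or of layer makeup in the dissected pieces in the level of Adra1d was not tested.

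**Figure D5:**
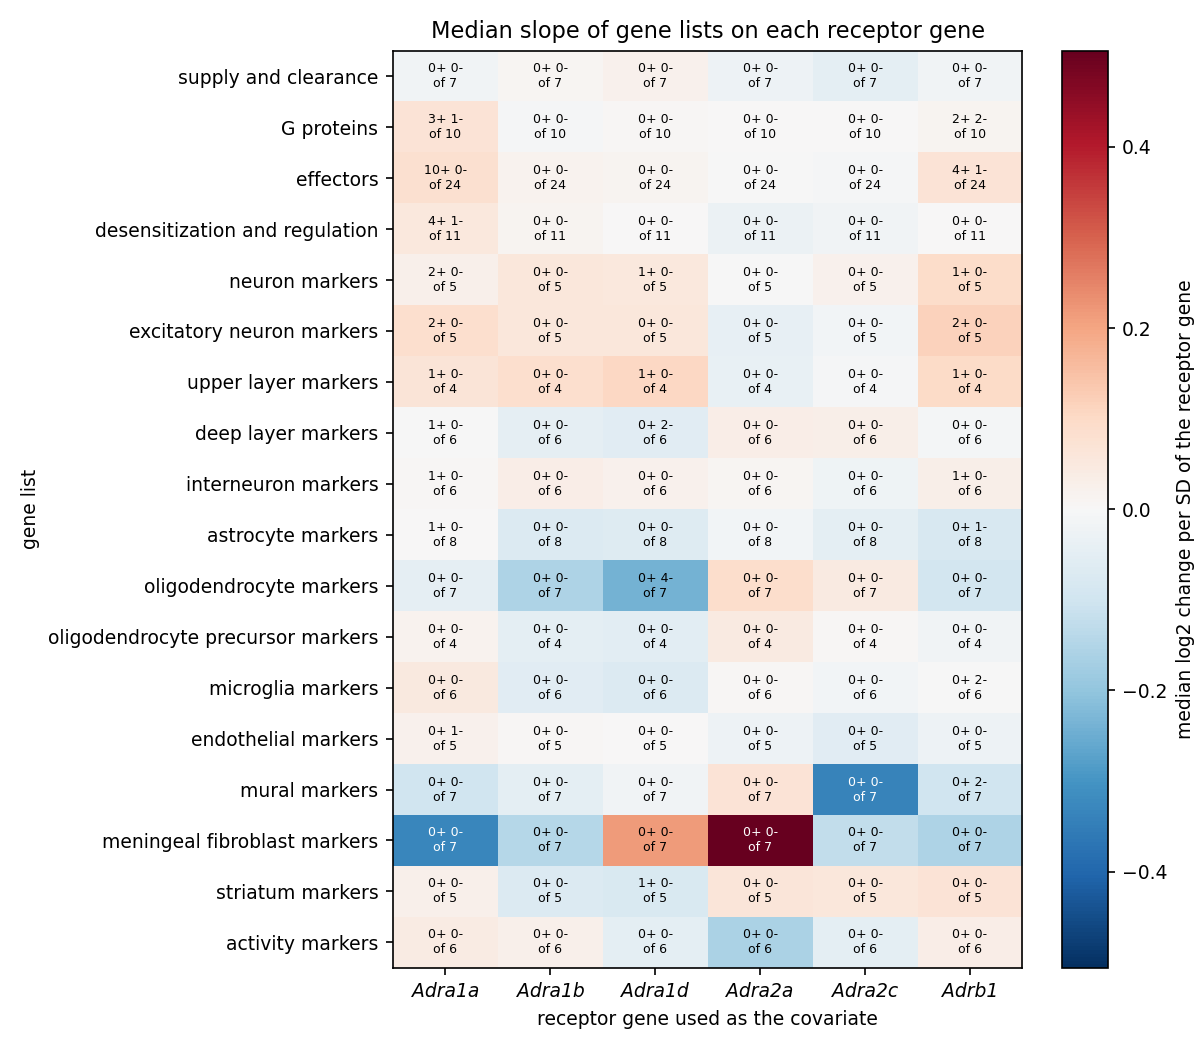
Median slope (log2 change per SD of the receptor gene, edgeR, 27 rats) of each gene list on each of the 6 fitted receptor genes, blue below 0 and red above, with the number of genes called upward (+) and downward (-) of those tested in each cell. The column of Adra1a holds 10 effectors called upward of 24, and that of Adra1d 4 oligodendrocyte markers called downward of 7. The strongest colors, in the meningeal fibroblast and mural rows, hold no called gene for Adra1a, Adra2a or Adra2c.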

How the data were processed

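Polyadenylated RNA of the mPFC of 27 rats was sequenced as single reads, and the authors deposited raw counts per NCBI gene ID, without normalization. Per the labels, the submitters' processing notes name Trimmomatic, STAR and HTSeq; versions, genome build and strand setting are not given in the sources used here. Symbols came from RefSeq GRCr8, which named 28157 of 36865 rows. No column of the table was left out.

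Counts were divided by DESeq2 size factors (DESeq2 1.42.0). Logs were taken as log2(normalized count + 1), a scale on which low genes appear to change less than they do. Slopes and block differences were tested with edgeR's quasi-likelihood test (edgeR 4.0.16, filterByExpr, TMM, Benjamini-Hochberg adjustment over all tested genes). Adjusted p-values are from edgeR unless stated. A receptor gene's own row was left out of its fit. Pairs of receptor genes were tested by permutation (scipy 1.17.1). The alternatives were TMM or total counts as scaling, DESeq2's Wald test, no filter on low counts, a pseudocount of 0.1, the library block as a covariate, each block alone (for the fits across all genes chosen after seeing the data), leaving out the 2 rats farthest from the median and, chosen after seeing the data, leaving out rat 3. For a receptor pair, the 2 rats left out were the farthest for the gene that comes first in the opening list. The scripts were tested on simulated data.

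The named genes are the 7 receptors, per fitted receptor the 3 genes of highest and the 1 of lowest rho, the noradrenaline list and the marker lists. Values of some list genes are not reported here. The members and lists were chosen with earlier results of these data known. The libraries are separate rats. Reads carry no molecular identifiers, so counting noise and the limit for 0 reads (3 counts) cover counting error only.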

Additional observations from a re-analysis of the deposited data

How the results depend on the processing

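The levels and log2 spreads of the receptor genes, the calls of spread beyond counting and the differences between library blocks held under the other scalings, the other tests and the other filters that were run for them, except that the SD of Adra2b on the log2 scale was 1.90 with a pseudocount of 0.1 in place of 0.93. The counts of genes following a receptor gene moved most. With DESeq2's Wald test they were 134 for Adra1b, 280 for Adra1d, 1 for Adra2a and 339 for Adra2c. Without the filter on low counts the Adra2c count was 11. With the block as a covariate it was 0 for Adra2c and 158 for Adrb1. Without the 2 rats farthest from the median it was 741 for Adra1a and 0 for Adra1b, Adra1d and Adra2c. Within the libraries numbered up to 31 it was 0 for Adra1b, Adra1d and Adra2c and 925 for Adrb1, and within those numbered from 32 it was 9 for Adra1a and 0 for Adra1b, Adra1d, Adra2c and Adrb1, where fewer rats entered the fit. Without rat 3 it was 63 for Adra1d, 2 for Adra2a and 184 for Adra2c. With the block as a covariate and without rat 3 it was 1 for Adra2a, 0 for Adra2c and 31 for Adrb1, and within the libraries numbered up to 31 without rat 3 it was 3 for Adra1b, 4 for Adra1d, 1 for Adra2a, 0 for Adra2c and 436 for Adrb1. Otherwise the cause was not tested. The number of receptor pairs with a Spearman p under 0.05 was 6. It was 5 or 6 under the other scalings, the other pseudocount and without the 2 most distant rats or rat 3, all of them among the 6. It was 7 with the block means subtracted, 4 of them among the 6, 7 within the libraries numbered up to 31, 2 of them among the 6, 5 there without rat 3, 1 of them among the 6, and 1 within those numbered from 32. The r of Adra2c with Adrb1 was 0.500 over all rats and -0.020 within the libraries numbered up to 31, while the Spearman rho of the called pairs and the called slopes between receptor genes kept their sign under the settings run. No paired analysis was possible because the rats form 1 group. Depth limits Adra2b, at 0 to 7 reads per rat, and to a lesser degree Adra1a, at 5 to 48.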
